A study of Mus musculus with 2 samples.

Results

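The cells described here were B16F10 melanoma cells with transcripts of S phase, in tumours grown under the skin of mice. S phase is the phase of the cell cycle in which DNA is copied. The cells were chosen by measured transcripts, and DNA content was not part of the rule. A melanoma cell was a cell with 200 to 5000 genes, at most 7.5% mitochondrial UMIs (unique molecular identifiers, one per counted transcript), no UMI of the leukocyte gene Ptprc and at least 0.5% of its UMIs from the pigment genes Pmel, Dct, Mlana and Tyrp1. It was called an S-phase cell if at least 6 of 10 S genes (Hells, Ung, Mcm3, Uhrf1, Cdt1, Dtl, Cdc6, Chaf1a, Mcm4 and Mcm2) and at most 3 of 10 genes of G2 and mitosis (Ube2c, Cenpe, Prc1, Cenpf, Tpx2, Kif11, Mki67, Cdca8, Racgap1 and Cdk1) had a UMI. Of 3557 melanoma cells among 7418 cells that passed the limits and 11778 deposited barcodes, 222 met this rule.

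B16F10 is a mouse melanoma line that forms pigmented tumours when injected into mice. The hosts carried Rosa26::CreERT2, a tamoxifen-activated recombinase present in all tissues, with either Atf4 WT/WT or Atf4 fl/fl, in which exons 2 and 3 of Atf4 lie between loxP sites. Mice of both genotypes had received tamoxifen by oral gavage, so the controls shared the recombinase and the drug, and the treated fl/fl mice are called Atf4 Δ/Δ. The melanoma cells were injected subcutaneously and carried their own Atf4, so genotype here means that of the surrounding host cells. Single-cell RNA sequencing of small tumours gave 1 library per genotype, each of 2 pooled tumours and, per the labels, from male and female mice of 11 weeks. Since neither genotype had a second library, the genotypes could not be tested against each other, no p-value is given, and genotype and library cannot be told apart. Values are given for the WT/WT library first and the Δ/Δ library second. Intervals are 95% and cover counting error only.

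S phase begins from origins that were licensed in G1, when the origin recognition complex with Cdc6 and Cdt1 loads the MCM helicase onto DNA. Geminin then prevents further loading, and the kinases CDK2 and DBF4-CDC7 start the helicases together with CDC45 and GINS. Transcription factors of the E2F family switch on many of these genes at the end of G1, together with cyclin E, while cyclin A and the mitotic genes build up later. CDKN1A (p21) and CDKN1B (p27) hold the kinases back. ATF4 is the transcription factor of the integrated stress response, which raises amino acid synthesis and transport genes.

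The libraries held 38417113 and 38290024 UMIs. S-phase cells numbered 127 in the WT/WT library and 95 in the Δ/Δ library, with 1499410 and 1116667 UMIs in all. Levels are given as UMIs per 1000000 UMIs (CPM) summed over the cells of a class, and the 3 UMIs taken as the limit of a count stood for 2.001 and 2.69 CPM in S-phase cells. Of 10 barcodes present in both libraries, 0 were S-phase cells. Atf4, the gene deleted in the hosts, was checked first. In S-phase cells Atf4 had 194 CPM (172 to 218, 291 UMIs) and 165 CPM (142 to 190, 184 UMIs), a log2 ratio of -0.24 (-0.51 to 0.04). In Ptprc-positive host cells it had 178 and 48.6 CPM, a log2 ratio of -1.88 (-2.44 to -1.35). In the other melanoma cells it had 229 and 203 CPM, a log2 ratio of -0.17 (-0.24 to -0.11). Thus Atf4 was lower in the Δ/Δ library in leukocytes and, by a smaller amount, in the other melanoma cells, and the few UMIs in S-phase cells gave an interval that included 0. Although both pools were labelled as male and female, 4 Y-linked genes had 0 UMIs in the Ptprc-positive cells of the WT/WT library and 60 in those of the Δ/Δ library.

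The pigment genes that entered the rule made up a median of 1.26% and 1.04% of UMIs in S-phase cells, and 1.21% and 0.938% in all other melanoma cells. Melanocyte genes outside the rule were present too: Mitf, the melanocyte master regulator, had 498 and 329 CPM, and Sox10, its upstream factor, had 113 and 123 CPM. The 5 T and NK cell markers had 0 UMIs in S-phase cells of both libraries. Macrophage markers summed to 139 and 34.9 CPM, endothelial markers to 33.3 and 37.6 CPM and fibroblast markers to 31.3 and 43.9 CPM. The 4 haemoglobin genes summed to 736 CPM in S-phase cells of the WT/WT library and to 0 UMIs in those of the Δ/Δ library. In all other melanoma cells haemoglobin was at 453 CPM and 1 UMI, so the libraries differed in the same way there.

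**Figure D1:**
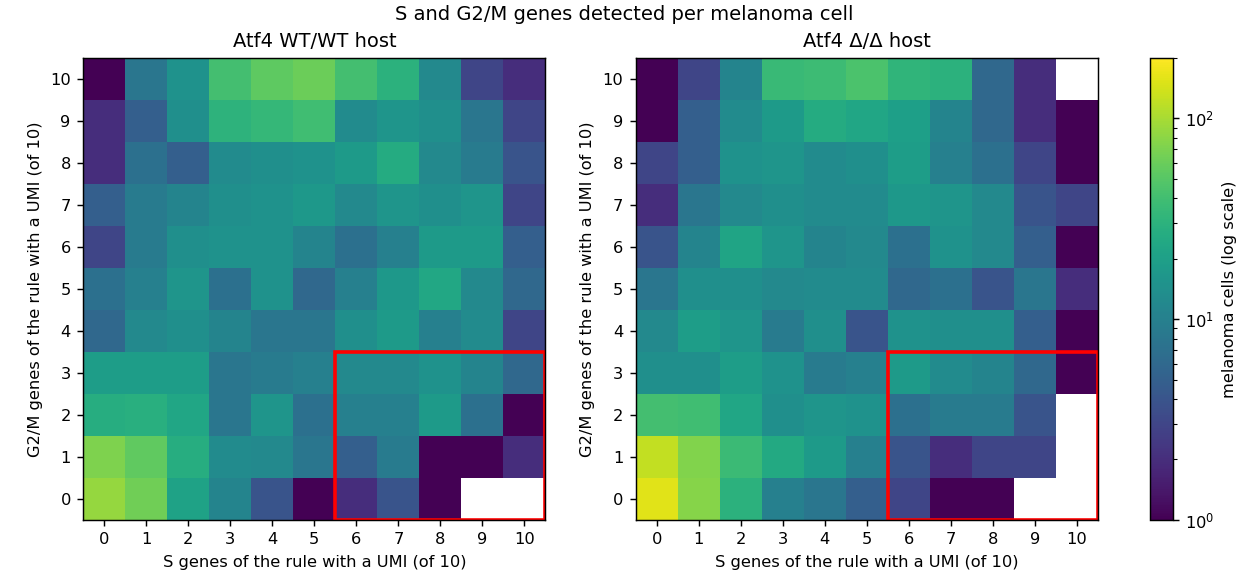
Melanoma cells by the number of S genes (horizontal axis) and of G2/M genes (vertical axis) of the rule that had a UMI, with the WT/WT library on the left and the Δ/Δ library on the right; colour is the number of cells on a log scale and white squares hold no cell. The red frame encloses the 127 and 95 S-phase cells, which adjoin cells with both sets of genes above it.

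The map of detected S and G2/M genes shows that S-phase cells were not a separate island. At the lower edge of the rule, 29 and 32 S-phase cells had exactly 6 S genes, while 26 and 40 cells with 5 S genes lay just outside. Replication genes that the rule did not use summed to 3132 and 2755 CPM in the cells just inside and to 2480 and 2230 CPM in those just outside. At the other edge, 56 and 49 cells had 3 G2/M genes and 58 and 49 cells with 4 lay outside, with 3539 and 3203 CPM inside against 3774 and 3189 CPM outside. Only 9 and 1 cells had all 10 S genes, and 7 and 5 had no G2/M gene at all. Cells with at least 6 S genes regardless of the G2/M genes numbered 584 and 413, so most cells with a strong S programme were kept out by G2/M transcripts.

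For comparison, the other melanoma cells were divided with the same 20 genes. G2/M-rule cells (at least 6 G2/M genes and at most 3 S genes) numbered 224 and 216, cells with both programmes (at least 6 S genes and more than 3 G2/M genes) 457 and 318, and low-phase cells (at most 3 of each) 500 and 711. The rule acts on depth in 2 ways, since several S genes had to be seen and few G2/M genes were allowed. The median was 11634 and 11792 UMIs in S-phase cells, 11298 and 10639 in all other melanoma cells, 7985.5 and 8420 in low-phase cells and 13919 and 13940 in cells with both programmes. S-phase cells had a median of 3373 and 3416 genes and 6.10% and 5.31% mitochondrial UMIs, against 6.02% and 5.40% in the other melanoma cells. Scrublet, a doublet caller, marked 2 and 1 S-phase cells (1.57% and 1.05%), compared with 4.56% and 2.07% of the other melanoma cells.

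S-phase cells made up 7.18% (6.02 to 8.48) of melanoma cells in the WT/WT library and 5.32% (4.32 to 6.46) in the Δ/Δ library, a log2 ratio of -0.43 (-0.83 to -0.04). With every cell thinned to 8000 UMIs the shares were 10.3% (8.73 to 11.96) and 7.58% (6.23 to 9.12), with 347 and 428 shallower cells left out, and the log2 ratio was -0.44 (-0.82 to -0.06). Thinned to 5000 UMIs, the shares were 6.21% and 3.66%, a log2 ratio of -0.76 (-1.26 to -0.28). The share in the Δ/Δ library was the lower at each of these depths, with an interval from counting error that did not reach 0. The size depended on the rule. The log2 ratio was -0.19 (-0.70 to 0.30) with pigment genes at 1% or more of UMIs and -0.19 (-0.54 to 0.15) with at least 5 S genes, both with intervals that included 0.

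The share depended strongly on the depth of a cell. Among cells of 10000 to 12000 UMIs it was 13.5% (10.1 to 17.5) and 8.86% (6.10 to 12.3), and among cells of 12000 to 14000 UMIs it was 13.6% (10.0 to 17.8) and 10.1% (6.90 to 14.1). In cells of 14000 to 18000 UMIs the share was 3.01% and 3.05%, and above 18000 UMIs it was 1.77% and 2.83%. S-phase cells were thus most frequent at intermediate depth, and the Δ/Δ library had the lower share between 5000 and 14000 UMIs but not above. In each of these depth classes alone, the interval of the log2 ratio included 0.

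**Figure D2:**
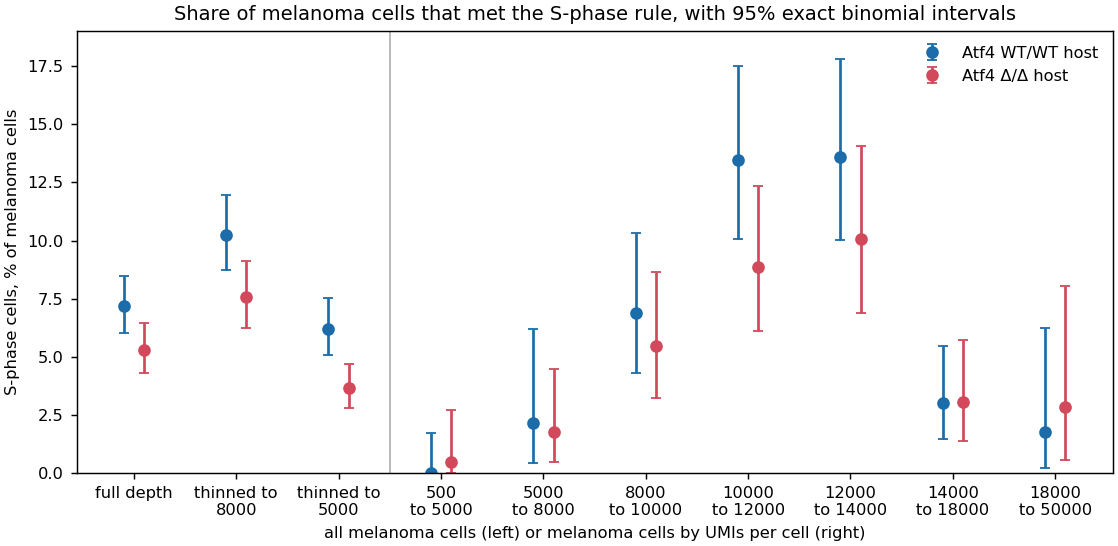
Share of melanoma cells that met the S-phase rule (vertical axis, percent) in the WT/WT library (blue) and the Δ/Δ library (red), at full depth and thinned to 8000 and 5000 UMIs on the left, and by UMIs per cell on the right; bars are 95% exact binomial intervals. The share was highest between 10000 and 14000 UMIs, at 13.5% and 13.6% in WT/WT hosts and 8.86% and 10.1% in Δ/Δ hosts.

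The other classes differed between the libraries as well. Cells with both programmes made up 25.8% (23.8 to 27.9) and 17.8% (16.0 to 19.6) of melanoma cells, a log2 ratio of -0.54 (-0.75 to -0.33). G2/M-rule cells made up 12.7% (11.1 to 14.3) and 12.1% (10.6 to 13.7), and low-phase cells 28.2% (26.2 to 30.4) and 39.8% (37.5 to 42.1), a log2 ratio of 0.49 (0.33 to 0.66). Thus the 2 classes with S genes held a smaller share, and the class with few phase genes a larger share, in the Δ/Δ library.

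The genes of the rule are given as a description of what was selected. Hells, a chromatin remodeller, had 181 and 142 CPM in S-phase cells and 88.3 and 56.4 CPM in all other melanoma cells. Ung, which removes uracil from new DNA, had 62.0 and 48.4 against 15.8 and 9.49 CPM, and Cdc6 had 60.0 and 55.5 against 20.1 and 10.5 CPM. Mcm2, a helicase subunit, was the least different, at 206 and 199 against 178 and 123 CPM. Over all 10 S genes the median log2 ratio to other melanoma cells was 1.11 and 1.43, and 7 of the 10 were past 2-fold in both libraries. Since the others included the cells with both programmes, the same median over low-phase cells was 3.52 and 3.62. The 6 marker genes Hells, Ung, Mcm3, Uhrf1, Cdt1 and Dtl were all higher in S-phase cells than in each other class but that with both programmes, in both libraries.

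All results that follow concern genes outside the rule. They were not used to select cells, but they were measured in the same cells as the rule genes, so their differences are a description and were not tested. A gene is counted as past 2-fold only if it passed in the same direction in both libraries, with at least 50 UMIs in melanoma cells. Over all other melanoma cells, 22 of 10358 genes were past 2-fold upward in S-phase cells (0.212%) and 85 downward (0.821%). Over G2/M-rule cells the background was 85 of 10249 genes upward (0.829%) and 161 downward (1.57%), and over low-phase cells 314 of 10437 upward (3.01%) and 144 downward (1.38%). Genes above 0 and below 0 in both libraries numbered 3053 and 3224 over all other melanoma cells. They numbered 2996 and 3285 over G2/M-rule cells and 3780 and 3448 over low-phase cells.

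The genes of DNA replication outside the rule were 53 genes of origin licensing, origin firing and the replication fork. They were not highest in S-phase cells. Their mean share of UMIs was 0.340% and 0.320% in S-phase cells and 0.397% and 0.349% in cells with both programmes. Summed genes of fork protection and repair, nucleotide supply and replication-coupled chromatin were also higher in cells with both programmes. Against the other classes, the replication genes were higher in S-phase cells by an amount that depended on the comparison. Their median log2 ratio was 1.84 and 1.81 over low-phase cells, 0.32 and 0.46 over G2/M-rule cells and 0.15 and 0.31 over all other melanoma cells. Over low-phase cells 36 of 53 were past 2-fold upward and 50 were above 0 in both libraries. Over G2/M-rule cells 8 were past 2-fold, namely Orc1, Orc6, Mcm6, Cdc7, Wdhd1, Pola2, Rfc3 and Dna2. Over all others 0 were, although 35 lay above 0 in both libraries and 8 below. The median over all genes lay between -0.01 and 0.05 in these comparisons. Low-phase cells were shallower. Among cells of 10512.5 to 12983.5 UMIs only (68 and 42 S-phase against 59 and 102 low-phase cells), the median over low-phase cells was 1.55 and 1.66, and 31 of the 53 genes were past 2-fold upward, where 2.92% of 8936 genes were upward and 1.31% downward. The 1 past 2-fold downward was Pold4, a small polymerase subunit, with 4 and 11 UMIs in those S-phase cells and 32 and 56 in those low-phase cells.

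**Figure D3:**
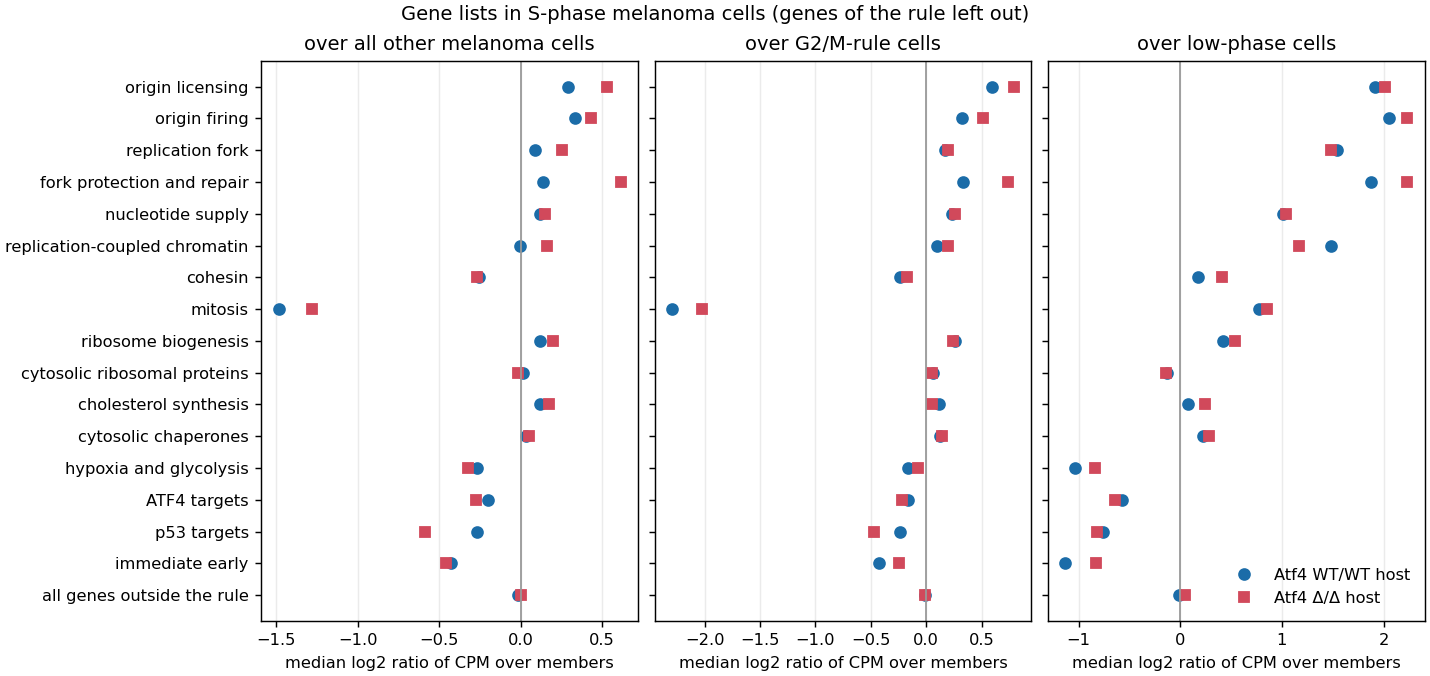
Median log2 ratio of CPM (horizontal axis) of gene lists in S-phase cells over all other melanoma cells (left), G2/M-rule cells (middle) and low-phase cells (right), with WT/WT hosts as blue circles and Δ/Δ hosts as red squares. Origin licensing, origin firing and replication fork lay above 0 in each panel. Mitosis lay below 0 over the first 2 classes (-1.49 and -1.28 on the left) and above 0 over low-phase cells (0.77 and 0.85).

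Origin licensing genes, 11 outside the rule, had median log2 ratios of 1.92 and 2.01 over low-phase cells, where 6 were past 2-fold, and 0.29 and 0.53 over all other melanoma cells. Mcm6, a subunit of the MCM helicase, had 167 and 162 CPM in S-phase cells, 80.3 and 77.6 in G2/M-rule cells and 31.0 and 30.4 in low-phase cells, a log2 ratio over the last of 2.43 (2.10 to 2.78) and 2.42 (2.11 to 2.73). Mcm5, another subunit, had 131 and 144 CPM in S-phase cells and 25.1 and 19.8 CPM in low-phase cells. The helicase subunits thus stood about as high in both libraries. Orc1, the subunit of the origin recognition complex that is made anew in each G1, had 19.3 and 14.3 CPM in S-phase cells, 3.07 and 6.21 in G2/M-rule cells and 1.18 and 1.43 in low-phase cells. Gmnn, which encodes geminin, had 103 and 121 CPM against 19.8 and 14.5 CPM in low-phase cells. In contrast, Orc4 and Orc5, subunits of the same complex as Orc1, had log2 ratios over low-phase cells of -0.06 and 0.12, and of -0.48 and 0.64. Orc5 had few UMIs, so its ratios are uncertain. In the depth range above it had 5 and 4 UMIs in S-phase cells and 4 and 3 in low-phase cells.

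To describe a feature that the rule did not use, the 250 bases before each start site were searched on both strands for 4 words that match the E2F site, TTTCCCGC, TTTCGCGC, TTTGCCGC and TTTGGCGC. Of 27025 genes with a RefSeq promoter on GRCm38.p6, 583 (2.16%) held a word. Among licensing genes outside the rule, 6 of 10 with a promoter in the table did, among replication genes outside the rule 11 of 42 (26.2%), and among the S genes of the rule 4 of 9 (44.4%). The share was lower for fork genes, at 3 of 24 (12.5%), so most replication genes held no word. Of the 26 mitosis genes with a promoter, 0 held one, but lists not raised in S-phase cells over the other melanoma cells also exceeded the share of all genes, such as cohesin with 2 of 6 and MHC class I with 2 of 11. These counts describe letters in a window and say nothing of whether a factor was bound. The windows of Mcm6 (chr1:128359706-128359955, minus strand) and Mcm5 (chr8:75109259-75109508, plus strand) are shown because they hold several words, and that of Mcm3 (chr1:20820313-20820562, minus strand), an S gene of the rule, because it holds none. They run 5′ to 3′ up to the start site, with the words in capitals. In Mcm6 the words begin 110, 106 and 47 bases before the start site, and the first pair overlap. In Mcm5 they begin 153 and 149 bases before it and overlap too.
Mcm6: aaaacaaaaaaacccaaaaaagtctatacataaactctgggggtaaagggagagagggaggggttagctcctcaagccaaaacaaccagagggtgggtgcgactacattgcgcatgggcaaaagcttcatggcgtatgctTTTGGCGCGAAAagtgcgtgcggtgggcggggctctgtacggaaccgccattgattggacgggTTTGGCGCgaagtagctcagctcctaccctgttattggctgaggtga
Mcm5: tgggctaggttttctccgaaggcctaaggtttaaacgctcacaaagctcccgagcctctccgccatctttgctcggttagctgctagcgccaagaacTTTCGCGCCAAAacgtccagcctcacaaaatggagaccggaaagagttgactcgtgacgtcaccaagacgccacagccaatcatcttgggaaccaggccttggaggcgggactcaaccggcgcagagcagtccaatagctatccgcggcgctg
Mcm3: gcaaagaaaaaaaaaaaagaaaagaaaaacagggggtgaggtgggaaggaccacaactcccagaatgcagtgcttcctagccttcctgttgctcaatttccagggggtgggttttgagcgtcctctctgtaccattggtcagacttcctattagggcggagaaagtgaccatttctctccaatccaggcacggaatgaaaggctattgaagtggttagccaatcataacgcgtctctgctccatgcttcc
Although the Mcm3 window holds no word, Mcm3 had 308 and 315 CPM in S-phase cells against 38.1 and 32.9 in low-phase cells, a difference selected by the rule.

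Origin firing genes had medians of 2.05 and 2.23 over low-phase cells, with 11 of 13 past 2-fold. In the depth range above they had 1.53 and 1.66, with 8 past 2-fold, and licensing genes 1.87 and 2.22. Topbp1, a scaffold that helps to activate the helicase, had 101 and 98.5 CPM in S-phase cells and 24.5 and 24.3 in low-phase cells. Gins2, a subunit of the GINS complex, had 51.4 and 60.9 against 14.2 and 12.2 CPM. Cdc45 differed between the libraries, with 30.0 CPM in S-phase cells of the WT/WT library, near the 33.4 CPM of the other melanoma cells there, and 48.4 against 19.2 CPM in the Δ/Δ library. Dbf4, the activator of the CDC7 kinase, was lower in S-phase than in G2/M-rule cells, at 51.4 and 58.2 against 102 and 98.5 CPM.

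Replication fork genes had medians of 1.54 and 1.48 over low-phase cells, with 19 of 29 past 2-fold, but of 0.09 and 0.25 over all other melanoma cells. Pcna, the sliding clamp of the polymerases, had 137 and 118 CPM in S-phase cells, 99.5 and 76.8 in G2/M-rule cells and 45.5 and 34.5 in low-phase cells. Fen1, the flap nuclease that trims Okazaki fragments, had 68.0 and 62.7 against 12.7 and 14.8 CPM in low-phase cells. Dna2, a nuclease and helicase of Okazaki fragments, had 32.0 and 33.1 against 4.72 and 6.79 CPM. Among the polymerase subunits, Pold1 and Pola2 stood past 2-fold over low-phase cells in both libraries, while Pole3 and Pole4 had log2 ratios between 0.09 and 0.33. The fork list thus held genes of wide use beside the strongly S-phase ones.

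Genes of fork protection and repair had medians of 1.88 and 2.24 over low-phase cells (16 of 21 past 2-fold) and of 0.33 and 0.74 over G2/M-rule cells. Past 2-fold over the latter, 6 were upward (Timeless, Clspn, Chek1, Exo1, Bard1 and Msh6) and 2 downward (Fancd2 and Fanci). Chek1, the checkpoint kinase that guards stalled forks, had 55.4 and 42.1 CPM in S-phase cells and 25.4 and 18.1 in all other melanoma cells, a log2 ratio of 1.12 (0.77 to 1.46) and 1.22 (0.74 to 1.66). It was the 1 gene of this list past 2-fold upward over all others. Msh6, a subunit of the mismatch sensor, had 52.0 and 52.8 CPM in S-phase cells and 9.22 and 8.92 in G2/M-rule cells. Exo1, the exonuclease of mismatch repair and end resection, had 41.4 and 29.6 CPM against 2.07 and 1.61 in low-phase cells. Clspn, the adaptor of Chek1, had 58.7 and 60.9 against 4.72 and 4.29 CPM. Fancd2, of the Fanconi anaemia pathway, was on the other side, with 8.67 and 6.27 CPM in S-phase cells against 20.8 and 18.2 in G2/M-rule cells.

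Nucleotide supply genes were raised less evenly, with medians of 1.01 and 1.04 over low-phase cells and 10 of 24 past 2-fold. Rrm2, the regulated subunit of ribonucleotide reductase, had 295 and 218 CPM in S-phase cells, 185 and 151 in G2/M-rule cells and 36.0 and 29.5 in low-phase cells. Tk1, the salvage thymidine kinase, was 87.4 and 85.1 CPM in S-phase cells but 103 and 120 CPM in G2/M-rule cells. Ctps and Ppat, which make CTP and start purine synthesis, were high in S-phase cells (41.4 and 45.7, and 70.7 and 74.3 CPM) and lower in G2/M-rule cells (14.6 and 16.7, and 35.4 and 27.9 CPM). Mthfd2, a mitochondrial folate enzyme, did not follow, with log2 ratios over low-phase cells of -0.51 and -0.19.

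Replication-coupled chromatin genes had medians of 1.48 and 1.17 over low-phase cells, with 8 of 15 past 2-fold. Nasp, a histone chaperone, had 295 and 237 CPM in S-phase cells against 87.7 and 56.8 in low-phase cells, and Slbp, which binds histone mRNA, had 149 and 141 against 66.4 and 62.9. The canonical histone genes, whose main transcripts lack a poly(A) tail and are poorly read by this 3′ assay, summed to only 135 and 199 CPM in S-phase cells and to 179 and 167 in low-phase cells. By member, 15 could be compared with low-phase cells, with medians of 0.50 and 1.59. Of these, 10 were above 0 and 2 below in both libraries, and 4 were past 2-fold upward and 0 downward. In the depth range above, 5 could be compared, with medians of -0.94 and -0.28. Cohesin genes had medians of 0.17 and 0.41 over low-phase cells and were somewhat lower than in all others, with medians of -0.25 and -0.27. Over all others 0 of 11 were above 0 and 5 below in both libraries. Their summed log2 ratio there was -0.36 (-0.46 to -0.27) and -0.12 (-0.23 to -0.01).

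The regulators of the G1/S step divided by their known phase. Ccne1, cyclin E1, had 79.4 and 77.0 CPM in S-phase cells, 16.1 and 15.5 in G2/M-rule cells and 17.4 and 17.9 in low-phase cells. Ccne2, cyclin E2, had 25 UMIs in the S-phase cells of each library (16.7 and 22.4 CPM), and 0 and 6 UMIs in low-phase cells. E2f1 had 49.4 and 51.0 CPM in S-phase cells, 16.1 and 15.9 in G2/M-rule cells and 8.86 and 6.97 in low-phase cells. These 3 genes were past 2-fold over G2/M-rule cells in both libraries. Ccna2, cyclin A2, ran the other way over the rest of the melanoma cells, at 42.0 and 22.4 against 101 and 69.4 CPM, but it was above low-phase cells (11.5 and 8.76 CPM).

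The cyclin-dependent kinase inhibitor genes Cdkn1a and Cdkn1b were lower in S-phase than in low-phase cells. Cdkn1a had 58.7 and 158 CPM in S-phase cells, 133 and 273 in G2/M-rule cells and 247 and 440 in low-phase cells, a log2 ratio over low-phase cells of -2.07 (-2.41 to -1.75) and -1.48 (-1.71 to -1.26). Cdkn1b had 19.3 and 25.1 CPM in S-phase cells and 56.1 and 55.0 in low-phase cells. Both were the only members of the cyclin and E2F list past 2-fold downward over low-phase cells, while 13 of its 26 members were past 2-fold upward. In the depth range above, 24 members could be compared, with 9 past 2-fold upward and only 1 downward. Cyclin D2 (Ccnd2) was also lower than in low-phase cells, at 357 and 569 against 545 and 789 CPM.

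Mitosis genes outside the rule, 30 in number, were low in S-phase cells relative to the rest. Over all other melanoma cells 20 were past 2-fold downward and 29 were below 0 in both libraries, with medians of -1.49 and -1.28, and over G2/M-rule cells 28 were past 2-fold downward. The limit on G2/M genes in the rule selects for this. Plk1, the kinase of mitotic entry, had 12.7 and 9.85 CPM in S-phase cells and 127 and 114 in G2/M-rule cells. Cdc20, which activates the anaphase-promoting complex, had 11.3 and 15.2 against 205 and 182 CPM. Nusap1, a spindle protein, had 9 and 1 UMIs in all S-phase cells, and Kif23, a kinesin of cytokinesis, had 6 and 6. Even so, 8 of 29 mitosis genes were past 2-fold above low-phase cells. Top2a, which untangles DNA, was among them with 139 and 147 against 30.7 and 23.4 CPM.

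**Figure D4:**
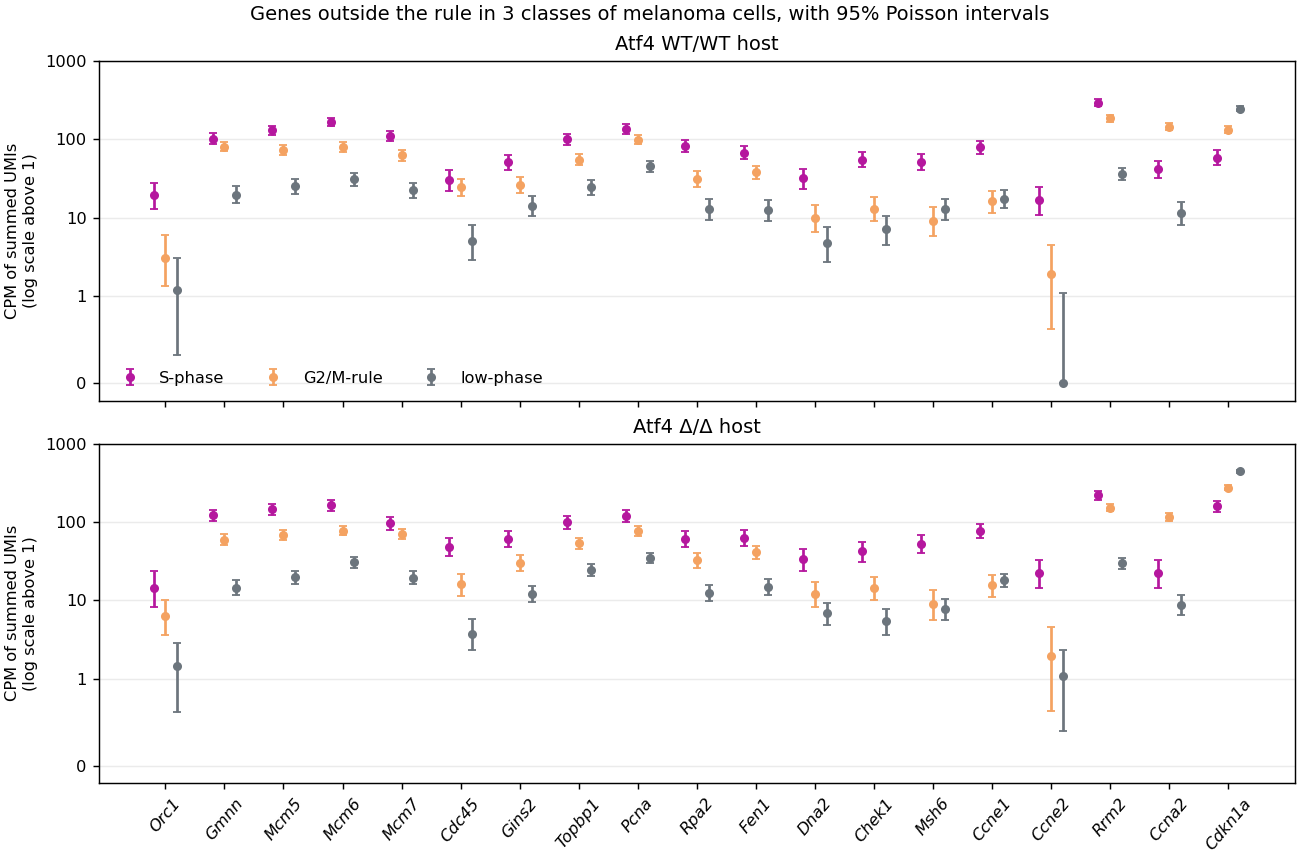
CPM (vertical axis, log scale above 1) of 19 genes outside the rule in S-phase (magenta), G2/M-rule (orange) and low-phase (grey) melanoma cells, with WT/WT hosts above and Δ/Δ hosts below; bars are 95% exact Poisson intervals. Of the 3 classes, Ccne1, Orc1 and Msh6 were highest in S-phase cells, Ccna2 was highest in G2/M-rule cells and Cdkn1a in low-phase cells.

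By size, the genes outside the rule with the largest upward ratios over all other melanoma cells were led by Chek1 and Slfn9, a member of the Schlafen family, with 20.7 and 16.1 CPM against 9.57 and 7.38. Orc1, Msh6 and Dna2 were also among the 15, as were Tonsl, which reads newly made chromatin at forks (18.7 and 15.2 against 8.03 and 8.16 CPM), and Fam111a, a protease that acts at replication forks (26.0 and 27.8 against 14.4 and 8.55 CPM). Mb21d1, which encodes the DNA sensor cGAS, had 18.7 and 13.4 against 9.13 and 7.05 CPM. Over G2/M-rule cells the 15 included Wdhd1, a fork scaffold (24.7 and 18.8 against 5.76 and 4.66 CPM), and Atad5, which unloads Pcna (66.7 and 72.5 against 20.8 and 15.1 CPM). With at least 200 UMIs required, 2 genes (Chek1 and Slfn9) were past 2-fold upward over all other melanoma cells and 85 downward. Most of these genes had few UMIs, so the ratio of a single gene is uncertain.

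Lists of stress genes differed in direction between S-phase and low-phase cells. Cytosolic chaperones had medians of 0.22 and 0.28 over low-phase cells, with 10 of 13 above 0 and 2 below in both libraries. Chaperones of the endoplasmic reticulum had medians of 0.16 and -0.21. Hypoxia and glycolysis genes had medians of -1.04 and -0.84 over low-phase cells, with 20 of 20 below 0 and 8 past 2-fold. Ero1l, an oxidase of the endoplasmic reticulum induced by hypoxia, had 107 and 148 CPM in S-phase cells and 558 and 680 in low-phase cells. Bnip3, a mitophagy receptor, had 103 and 100 against 386 and 294 CPM, and Car9, the carbonic anhydrase used as a hypoxia marker, had 38.7 and 65.4 against 143 and 186 CPM. In the same depth range as above, the hypoxia medians were -1.01 and -0.80. Over G2/M-rule cells the medians were only -0.16 and -0.07, so the distance was to low-phase cells. Fibroblast markers differed in the same comparison, at 31.3 and 43.9 CPM in S-phase cells and 218 and 105 CPM in low-phase cells, and haemoglobin in the WT/WT library was 736 against 1416 CPM. Macrophage markers were at 139 and 34.9 CPM in S-phase cells and 203 and 127 CPM in low-phase cells. The part of these markers in the ratios was not tested.

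ATF4 targets, p53 targets and immediate early genes were also lower in S-phase than in low-phase cells. ATF4 targets had medians of -0.58 and -0.64 over low-phase cells (6 of 34 past 2-fold downward), p53 targets -0.76 and -0.82 (Cdkn1a, Trp53inp1 and Btg2 of 15) and immediate early genes -1.13 and -0.83 (Junb, Jund, Atf3 and Btg2 of 16). Within the depth range above, the last medians were -0.67 and -0.57, and those of ATF4 targets -0.50 and -0.45. The fibroblast, macrophage and haemoglobin markers given above moved in the same comparison. Immediate early genes summed to 883 and 957 CPM in S-phase cells, 1678 and 1692 in low-phase cells and 6012 and 6078 in Ptprc-positive cells, and the part of such cells was not tested. Nupr1, a stress-induced chromatin protein, had 8.67 and 60.0 CPM in S-phase cells against 56.7 and 181 in low-phase cells. Trp53inp1, a p53 target, had 7.34 and 8.96 against 39.3 and 43.1 CPM. Ribosome biogenesis genes lay on the other side, with 23 of 23 above 0 in both libraries and medians of 0.42 and 0.54. Ribosomal protein genes did not follow them, with medians of -0.13 and -0.14 and 69 of 80 below 0.

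S-phase cells also varied among themselves. Replication genes outside the rule took 34.0 UMIs per 10000 in the median S-phase cell of the WT/WT library (12.8 to 58.1 over cells) and 32.2 (14.1 to 52.1) in that of the Δ/Δ library. The median low-phase cell had 13.3 and 12.6. The lowest S-phase cells thus lay at the level of the median low-phase cell. When S-phase cells were split by the G2/M genes they showed, 25 and 17 cells had 0 or 1 and 102 and 78 had 2 or 3. Ccna2 had 10.7 and 11.1 CPM in the former and 49.2 and 24.5 in the latter, and Rrm2 had 193 and 150 against 319 and 231 CPM. Esco2, which acetylates cohesin during S phase, had 0 UMIs in the former in both libraries and 21 and 18 UMIs in the latter. Ccne1 differed less, at 71.5 and 72.3 CPM in the former and 81.2 and 77.9 CPM in the latter. The intervals of the 2 subsets overlapped in both libraries for Ccne1 and Esco2, and in the Δ/Δ library only for Ccna2 and Rrm2. The split used genes of the rule and small numbers of cells, so these values are a description.

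Between host genotypes, the replication genes of S-phase cells differed by a small amount that depended on the rule and scaling. The 41 replication genes with at least 50 UMIs in S-phase cells had a median log2 Δ/Δ over WT/WT ratio of -0.06, with 14 above 0 and 27 below. It was -0.18 with at least 5 S genes, -0.12 with phase genes read at 8000 UMIs and -0.11 with TMM scaling. In all other melanoma cells the median of the same genes was -0.33, with 38 of 41 below 0. Summed over all 53 replication genes, the log2 ratio was -0.10 (-0.16 to -0.04) in S-phase cells and -0.30 (-0.32 to -0.28) in the others. For the S genes of the rule the medians were -0.06 and -0.49. The rule requires at least 6 S genes in both libraries, so their level in S-phase cells is no independent measure, and the other melanoma cells of the Δ/Δ library held a smaller share of cells with S genes. Over all 5657 genes compared in S-phase cells, the median was 0.02, with 52 past 2-fold upward (0.919%) and 36 downward (0.636%). Of these genes, 2930 lay above 0 and 2727 below in S-phase cells, and 2746 above and 2911 below in the other melanoma cells. With at least 200 UMIs, 2 genes were past 2-fold upward, Cdkn1a and 1700003F12Rik (56.0 and 156 CPM, with a log2 ratio of 1.48 in S-phase and 1.57 in the other melanoma cells), and 4 downward, Hbb-bs, Rpa3, Plod2 and Id2.

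A single replication gene, Rpa3, was past 2-fold between the libraries. Rpa3 encodes the smallest subunit of replication protein A, which coats single-stranded DNA. It had 139 CPM (209 UMIs) in S-phase cells of WT/WT hosts and 56.4 CPM (63 UMIs) in those of Δ/Δ hosts, a log2 ratio of -1.30 (-1.74 to -0.89). In the other melanoma cells the log2 ratio was -1.33 (-1.44 to -1.22), and in G2/M-rule cells Rpa3 had 121 and 52.8 CPM. The other subunits of the complex did not share this, as Rpa1 had 80.0 and 74.3 CPM and Rpa2 82.0 and 60.9 CPM in S-phase cells. Cdc45 was the farthest on the other side among replication genes with an interval off 0, at 0.69 (0.09 to 1.29) in S-phase cells and -0.80 (-0.99 to -0.61) in the others. The others of the Δ/Δ library held a smaller share of cells with S genes, and the part of this was not tested.

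Cdkn1a was higher in S-phase cells of Δ/Δ hosts, with 58.7 CPM (88 UMIs) and 158 CPM (176 UMIs), a log2 ratio of 1.43 (1.05 to 1.81). The ratio in the other melanoma cells was 1.24 (1.17 to 1.30). Of 8 p53 targets with enough UMIs, 7 were above 0 in S-phase cells, with a median of 0.47 against 0.46 in the others, and Cdkn1a was the 1 past 2-fold. The level of Cdkn1a in S-phase cells of Δ/Δ hosts nevertheless stayed below that of low-phase cells of either library.

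ATF4 targets were higher in S-phase cells of Δ/Δ hosts, and the melanoma cells keep their own Atf4. Of 23 targets with at least 50 UMIs, 18 were above 0 and 4 past 2-fold (Nupr1, Atf5, Slc7a5 and Cebpb), with a median log2 ratio of 0.40 and of 0.39 in the other melanoma cells. Asns, asparagine synthetase, had 88.0 and 157 CPM, a log2 ratio of 0.83 (0.50 to 1.17). Psph, the last enzyme of serine synthesis, had 70.0 and 131 CPM, 0.90 (0.53 to 1.28), and Eif4ebp1, a translation repressor, had 160 and 295 CPM, 0.88 (0.64 to 1.13). Nupr1 had 8.67 and 60.0 CPM (13 and 67 UMIs), 2.79 (1.92 to 3.77), and Atf5, a factor related to ATF4, had 13.3 and 55.5 CPM, 2.06 (1.31 to 2.86). The 5 below 0 were Wars, tryptophanyl-tRNA synthetase, at -0.59 (-1.13 to -0.07) with 63.4 and 42.1 CPM, Atf4 itself at -0.24, Mars and Cebpg at -0.08 and Slc3a2 at -0.02. Wars was at 0.02 in the other melanoma cells. In the other melanoma cells Asns, Psph and Eif4ebp1 were at 0.77, 0.83 and 0.94, Atf5 at 1.82 and Nupr1 at 2.11, the last with the widest interval of these in S-phase cells. Macrophage markers (139 and 34.9 CPM) and haemoglobin (736 CPM and 0 UMIs) differed between the same S-phase cells, and their part in the ratios between libraries was not tested.

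**Figure D5:**
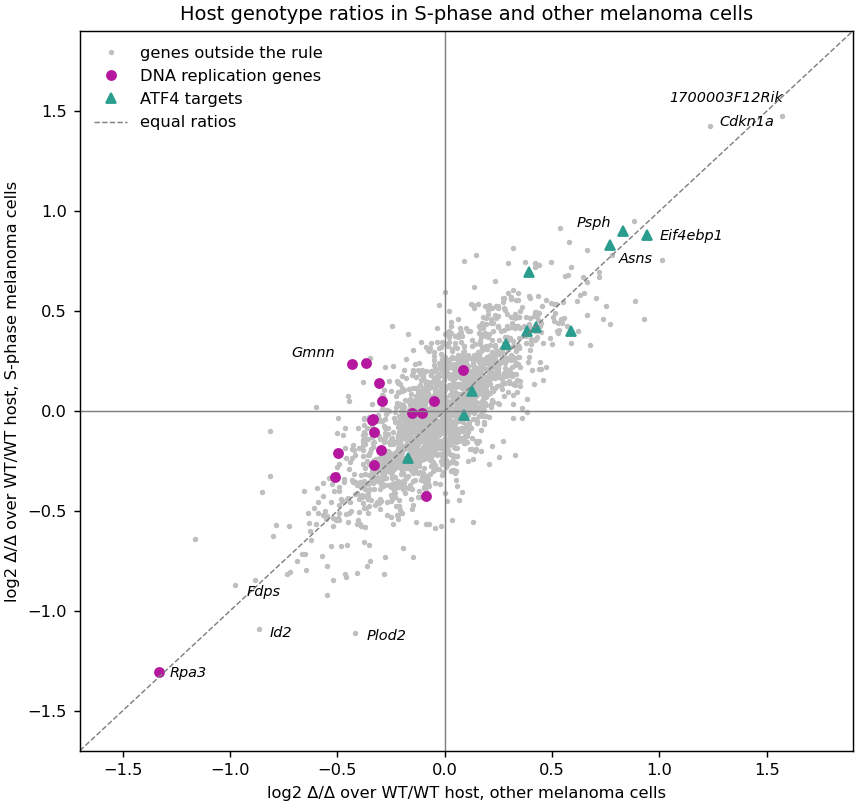
Log2 Δ/Δ over WT/WT ratio of genes with at least 200 UMIs in S-phase cells, in S-phase cells (vertical axis) against all other melanoma cells (horizontal axis); replication genes are magenta, ATF4 targets teal triangles and other genes grey, and the dashed line marks equal ratios. Hbb-bs, with 678 and 0 UMIs in S-phase cells, lies outside the axes. Rpa3 (-1.30 and -1.33), Cdkn1a (1.43 and 1.24) and the ATF4 targets Asns, Psph and Eif4ebp1 lay near the line, while Gmnn (0.24 and -0.43) and Plod2 (-1.11 and -0.42) lay off it.

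Other genes that were lower in S-phase cells of Δ/Δ hosts included Fdps, farnesyl diphosphate synthase of the cholesterol pathway, with 457 and 250 CPM and a log2 ratio of -0.87 (-1.08 to -0.67). Of 20 cholesterol synthesis genes 16 were below 0, with a median of -0.37, and -0.42 in the other melanoma cells. The 11 cytosolic chaperones with enough UMIs were all below 0, with a median of -0.29, and -0.35 in the others. Hsp90aa1, the inducible HSP90, had 3318 and 2282 CPM. Id2, an inhibitor of helix-loop-helix factors, had 141 and 66.3 CPM, a log2 ratio of -1.09 (-1.50 to -0.71). Myc, the growth factor-driven transcription factor, had 92.0 and 49.3 CPM, -0.90 (-1.38 to -0.44). Among pigment cell genes outside the rule Mitf was at -0.60 (-0.78 to -0.42), and Mc1r, the melanocortin receptor, was higher in Δ/Δ hosts, at 66.0 and 116 CPM.

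A few genes differed between the libraries by another amount in S-phase cells than in the other melanoma cells. The other melanoma cells held different shares of the phase classes in each library, and the part of this in the differences was not tested. Gmnn had log2 ratios of 0.24 (-0.11 to 0.58) in S-phase cells and -0.43 (-0.54 to -0.32) in the others. Fam136a, a mitochondrial protein, had 0.43 (0.10 to 0.75) and -0.24, and Gsta4, a glutathione transferase, -0.10 (-0.49 to 0.29) and -0.81. In the other direction, Plod2, a collagen lysyl hydroxylase, had -1.11 (-1.56 to -0.68) and -0.42, with 116 and 53.7 CPM in S-phase cells and 111 and 83.3 CPM in the others. Tars, threonyl-tRNA synthetase, had -0.55 (-0.996 to -0.12) and 0.13. These are the largest differences by size among genes with at least 200 UMIs in S-phase cells, beside haemoglobin, and none was tested.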

How the data were processed

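Single-cell suspensions of small B16F10 tumours were sequenced with a 10x Genomics 3′ kit, which the labels give as V3 and the study's methods as V2. The authors deposited, per library, a filtered matrix of raw UMI counts. The submitters' processing notes name Cell Ranger 3.1.0, Seurat 3.2.1 and GRCm38. Columns of these matrices that belonged to no sample of the series numbered 0.

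Cells with fewer than 200 or more than 5000 genes, or more than 7.5% mitochondrial UMIs, were left out (387 and 37, 28 and 23, and 2125 and 1897 barcodes, which can overlap). Doublets were called with Scrublet (scanpy 1.11.5) and kept. UMIs were summed per class of cells and library and divided by the total (CPM). Log2 ratios have exact conditional binomial intervals, shares have Clopper-Pearson and CPM exact Poisson intervals. Counts under 3 were set to 3 in ratios, and no ratio was formed where both counts were at or under 3 or where this turned the direction. List members needed 50 UMIs. No difference was tested, since each genotype had 1 library. The calculation of ratios and their intervals was checked on simulated counts with known folds. Promoters came from RefSeq (GRCm38.p6).

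Genes were named as members of the rule or of the lists, or by size with at least 200 UMIs: for S-phase over other and over G2/M-rule cells the 15 largest upward and 10 downward, for Δ/Δ over WT/WT the 10 largest each way, and for the difference of that ratio the 5 largest each way. The members and the 32 gene lists were chosen with earlier results of these data known. Alternatives varied the limits, the rule, the thinning, the scaling (TMM in edgeR 4.0.16, median-of-ratios) and the filters. Software was Python 3.11.15, numpy 2.4.6, scipy 1.17.1, pandas 2.3.3, matplotlib 3.10.9 and R 4.3.3.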

Additional observations from a re-analysis of the deposited data

Results flagged for a closer look

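Some values in S-phase cells had opposite directions in the 2 libraries. These differences between libraries were not tested, and 34 lists and 337 genes were examined for them. Summed over the list, endoplasmic reticulum chaperones had a log2 ratio over low-phase cells of 0.17 in WT/WT and -0.21 in Δ/Δ hosts. Of these, Hsp90b1, the HSP90 of that compartment, had 0.19 and -0.13 over all other melanoma cells and 0.15 and -0.37 over low-phase cells, with 1066 and 721 CPM in S-phase cells. Fkbp2, a prolyl isomerase, had 0.29 and -0.57 over low-phase cells, and Gsta4 had -0.44 and 0.49. Summed canonical histone genes had -0.41 and 0.25 over low-phase cells. Rfc4, a clamp loader subunit, had -0.29 and 0.31 over all other melanoma cells. Summed ribosomal protein genes had 0.0070 and -0.016 over all other melanoma cells, and Rpl18 had 0.054 and -0.073 over low-phase cells, which are small in size.

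Cells above the mitochondrial limit entered none of the comparisons and were used only for the alternative limit. Among those that otherwise met the melanoma rule, the S-phase rule was met by 6.07% (59 of 972, interval 4.65 to 7.76) in the WT/WT library and by 3.02% (27 of 895, interval 1.997 to 4.36) in the Δ/Δ library.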

How the results depend on the processing

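No paired analysis was possible because neither genotype had a second library. Of 125 planned recalculations, 87 stayed within the counting spread or within 1.5 times the count, 37 moved and 1 reversed. For medians over genes, the counting spread was the width of the interval of the summed ratio, centred on the median. It is no interval of the median itself. The log2 ratio of the S-phase share (-0.43) ranged from -0.76 to -0.19, within its interval, but the interval of the alternative included 0 with pigment genes at 1% (-0.19, -0.70 to 0.30) and with at least 5 S genes (-0.19, -0.54 to 0.15). TMM, median-of-ratios, CPM without mitochondrial and ribosomal genes, no upper gene limit and other member filters kept each value within its counting spread. Of these, TMM and median-of-ratios gave -0.11 and -0.10 for the replication median of Δ/Δ over WT/WT, against -0.06. Otherwise the moved values, WT/WT before Δ/Δ where both moved, were as follows, and the cause was not tested. The ratio of median UMIs per cell, S-phase over other melanoma cells (1.03 and 1.11), was 1.09 in WT/WT with mitochondrial UMIs up to 15%, 0.981 in WT/WT with pigment genes at 1%, 0.947 and 0.973 with phase genes read at 8000 UMIs, and 0.990 and 1.01 in the S-phase depth quartile band. The 0.973 in Δ/Δ was the reversal, and the 3 WT/WT values under 1 also turned, from a ratio whose interval included 1. The replication median over other melanoma cells (0.15 and 0.31) was 0.38 in Δ/Δ at 15%, 0.22 in Δ/Δ with at least 5 S genes, 0.21 and 0.42 with at least 7, 0.31 in WT/WT at 8000 UMIs, and 0.36 and 0.64 at 5000 UMIs. The replication median of Δ/Δ over WT/WT in S-phase cells (-0.06) was -0.18 with at least 5 S genes and -0.12 at 8000 UMIs. Genes past 2-fold upward over other melanoma cells (2) numbered 6 at 15%, 1 and 6 with at least 5 and 7 S genes, 4 without doublets, 8 and 22 at 8000 and 5000 UMIs, 0 in the band, 22 with at least 50 UMIs and 298 without a filter, and those downward (85) numbered 39 at 5000 UMIs and 30 in the band. Between hosts in S-phase cells (2 upward and 4 downward), upward counts were 4 at 15%, 0 with pigment at 1%, 6 and 1 with at least 5 and 7 S genes, 1 at 5000 UMIs and 1 in the band, and downward counts were 1 with pigment at 1% and 2 in the band. With at least 50 UMIs they were 52 and 36, and without a filter 577 and 298. The comparison with low-phase cells within the depth band was added after seeing the data, and the replication medians there were 1.55 and 1.66.

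Each host genotype had 1 library of pooled tumours, so host, pool, sex and processing cannot be told apart. The S-phase rule reads few UMIs per gene, so cells in S phase with shallow libraries were missed, and cells with S genes and more than 3 G2/M genes were kept out. Fewer than 100 UMIs lay behind many genes, and at the lowest counts a 2-fold difference is near the counting error.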
